A study of Bos taurus with 4 samples.

Results

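The kinase genes Dclk1 and Jak1 were each represented by several cDNA clones on an array of mouse clones, to which RNA of bovine chromaffin cells had been hybridised. Every clone whose single annotated gene symbol was Dclk1 or Jak1 was taken, which gave 5 Dclk1 clones and 4 Jak1 clones. These 9 clones belonged to 35964 library probes, a probe being a named clone or, where no clone name was given, a plate position. All 9 passed the filter on dim probes, as did 35112 probes in all. Each of the 9 had 1 spot per array. The genes had been picked because their brightest clones had some of the highest ratios between treated and control cells in these same 4 arrays. The ratios of the 9 clones are therefore described and carry no test and no p-value.

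Cultured bovine chromaffin cells were exposed in vitro to the peptide PACAP for 6 h (dose 100 ng/ml, temperature 37 C), and control chromaffin cells served as the comparison. PACAP (pituitary adenylate cyclase-activating polypeptide) is a neuropeptide that raises cyclic AMP and calcium in chromaffin cells, the catecholamine-secreting cells of the adrenal medulla. On each of 4 arrays, 1 per biological repeat, RNA of treated cells carried the red dye Cy5 and RNA of control cells the green dye Cy3. No array had the dyes exchanged, so a difference between dyes and a difference between treatments cannot be told apart. The labels name chromaffin cells as the cell type but brain as the tissue. They do not say whether the repeats came from separate animals or cultures, so the spread over arrays may be in part technical. Bovine RNA was read with mouse clones throughout, and the match between each clone and the bovine transcript is not known here.

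DCLK1 joins a doublecortin-like part, which binds microtubules, to a serine/threonine kinase part that resembles the calcium/calmodulin-dependent kinases. In neurons it is known for roles in migration, axon growth and transport along microtubules. JAK1 is a tyrosine kinase bound to the cytoplasmic tails of cytokine receptors. When a cytokine joins the receptor chains, Janus kinases phosphorylate each other and the receptor, and STAT transcription factors are then recruited, phosphorylated and moved to the nucleus. SOCS proteins and tyrosine phosphatases limit that signal.

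Ratios are given as log2(PACAP/control) after loess, a smooth correction on each array that removes the average ratio of spots of like brightness, so that 1 stands for a doubling relative to such spots. Over the 35112 probes the median ratio was -0.01 and 48.6% of the mean ratios were above 0. With the authors' ratios, which are calibrated by 1 factor per array and have no loess, 29.0% were above 0. No probe passed an adjusted p of 0.05 in limma (0%, lowest adjusted p 0.454), while 3647 probes (10.4%) had an unadjusted p under 0.05, of which 1378 (3.92%) were higher and 2269 (6.46%) lower in PACAP. Median signals differed between arrays, from 99.9 to 402.7 in Cy5 and from 129.4 to 548 in Cy3. Repeat 4 stood apart in dye balance: its calibration factor was 0.432, against 1.53 to 1.97 for the other repeats. The share of spots whose control signal lay more than 2 background SDs above the local background was 53.0% on repeat 2 and 46.0% on repeat 3, against 80.9% and 98.3% on repeats 1 and 4. Of 8 chromaffin markers, 6 were measured (not Dbh and Pnmt) and 4 of these were above background in control RNA on at least 3 arrays. Their summed signal ran from 6485.2 to 71509 in Cy3 and from 19633.5 to 60811 in Cy5. Their median ratio was 0.45, and single markers ran from -0.50 to 1.84. Of 5 fibroblast markers 4 were measured and above background, with sums from 6387.5 to 57708.5 in Cy3 and from 18778.7 to 58066.7 in Cy5 and a median ratio of -0.22. Adrenal cortex markers (5 of 6 measured) had a median ratio of -0.26. The medians were -0.003 for endothelial, 0.09 for Schwann and sustentacular, and 0.13 for leukocyte markers. In no marker list did a gene pass the adjusted p. The part of these cells in the ratios of Dclk1 and Jak1 was not tested.

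Mean ratios above 0 were found for 7 of the 9 clones, beside 48.6% of all probes. Among the 7 was Dclk1 AW050244, at 0.08, with a control signal above background on 1 array. Higher in PACAP on all 4 arrays were 4 clones, 2 of each gene. Those 4 were Dclk1 AI854218 and BE957207 and Jak1 AW553979 and AI837528, with mean ratios from 1.45 to 1.99. Among the 33267 probes with a value on every array, 10.1% were higher and 8.71% lower on all 4, and 0.64% were higher on all 4 with a mean above 1. Of 5658 genes with at least 2 clones, 15 (0.265%) had at least 2 clones of that kind, and Dclk1 and Jak1 are among those 15. Since these ratios are the ones the genes were picked on, the shares are given as background only. The remaining 5 clones ran from -1.15 to 0.80 in mean ratio.

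**Figure D1:**
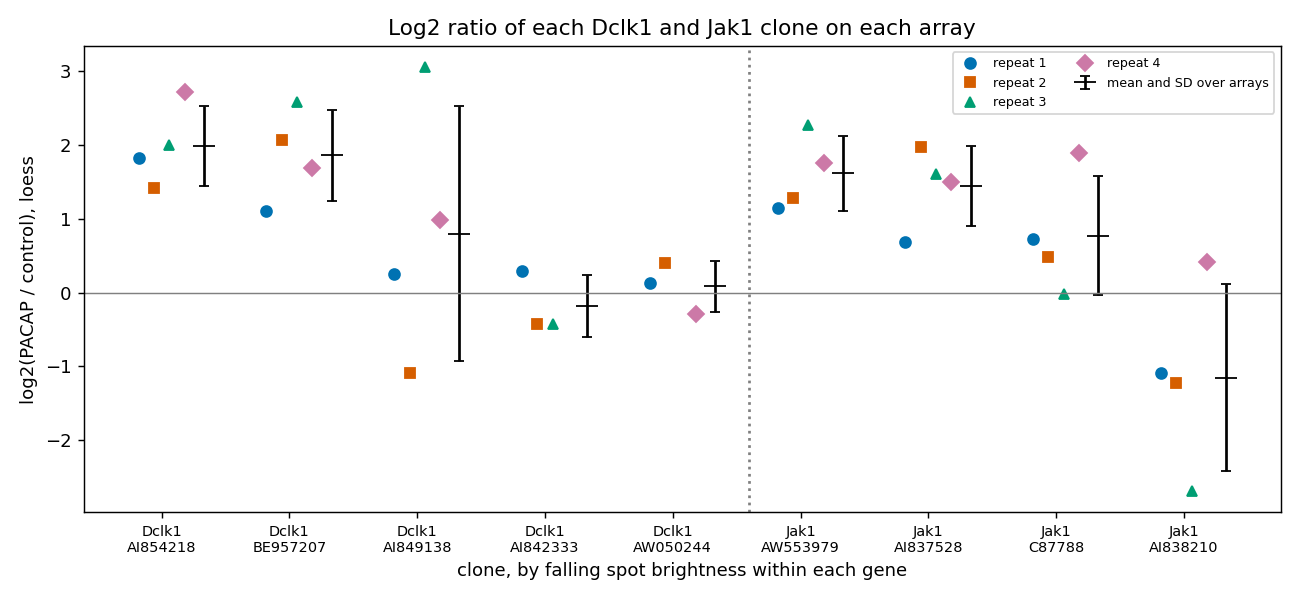
Log2(PACAP/control) after loess of the 5 Dclk1 and 4 Jak1 clones (vertical axis), ordered by falling spot brightness within each gene. Symbols are the 4 repeats and the bars show the mean and SD over the arrays with a spot. Dclk1 AI854218 and BE957207 and Jak1 AW553979 and AI837528 lie above 0 on every repeat, while Jak1 AI838210 lies below the other Jak1 clones on every repeat.

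The brightest Dclk1 clone was AI854218, titled as double cortin and calcium/calmodulin-dependent protein kinase-like 1. Its spots were brighter than 99.2% of the probes. The PACAP signal was 20535.9, 12047.1, 7437.7 and 13828.8 on repeats 1 to 4, and the control signal was 2300.3, 958, 632.8 and 4573.1. The PACAP signal was the higher one on each array, and both channels were above background on all 4. After loess the log2 ratios were 1.83, 1.42, 2.00 and 2.72, with a mean of 1.99 ± 0.54 (SD, n = 4), or 3.97-fold. Repeat 4 gave the highest ratio after loess but the lowest before it, where the ratios were 3.16, 3.65, 3.56 and 1.60. Without repeat 4 the mean was 1.75. In the authors' deposited log2 ratios the clone was above 0 on every array, at 2.74, 3.65, 4.32 and 2.91. The medians of all entries there were 4.673, 5.511, 4.245 and -0.375. The direction turned only once the deposited values were centred on their median over all probes, where the mean was -0.17 ± 2.49 (SD, n = 4). That turn thus came with the medians subtracted. The size of this clone's ratio also moved with the loess correction, which lowered the mean by 1.00 on the log2 scale. In bulk RNA, more cells that express a gene and more RNA per cell cannot be told apart, here and in every ratio that follows.

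BE957207, titled weakly similar to doublecortin, was annotated to another UniGene cluster than AI854218 and to the same symbol. Its PACAP signal was 1819.6, 2214.1, 991.7 and 1486.3, and its control signal was 465.9, 207.1, 100.5 and 1045.6. The control spot of repeat 3 was within 2 background SDs of the local background, so the ratio there rests on a weak control signal. The log2 ratios were 1.11, 2.07, 2.58 and 1.69, with a mean of 1.86 ± 0.62 (SD, n = 4). When spots with either channel that dim were left out, an alternative added after the data had been seen, the mean was 1.63. AI854218 and BE957207 differed by 0.12 ± 0.87 (SD, n = 4) in log2 ratio, and the sign of the difference turned between arrays, from 0.72 and 1.02 on repeats 1 and 4 to -0.65 and -0.58 on repeats 2 and 3. Their difference was within the spread between arrays.

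Another Dclk1 clone, AI849138, had the same title and cluster as AI854218 but no steady ratio. The PACAP signal was 1040.9, 563.2, 289.9 and 564.6, and the control signal 512.4, 533.6, 45.5 and 658.1. The log2 ratios were 0.25, -1.09, 3.06 and 0.98, with a mean of 0.80 ± 1.73 (SD, n = 4). It was the highest Dclk1 clone on repeat 3 and the lowest on repeat 2. On repeat 3 its control signal was 0.69 background SDs above the local background. Without that array the mean was 0.05, and without repeat 2 it was 1.43. AI854218 exceeded it by 1.19 ± 1.55 (SD, n = 4) in log2 ratio, and was the higher clone on 3 of 4 arrays.

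The other two Dclk1 clones were dim. AI842333 again carried the title and cluster of AI854218, yet only 5.30% of the probes were dimmer. Its PACAP signal was 236.7, 101.2 and 42.1 and its control signal 165.1, 140.5 and 47.1 on repeats 1 to 3, and on repeat 4 no spot area was found. The control signal was not well above background on any of these 3 arrays, so no fold is given. The computed log2 ratios were 0.30, -0.42 and -0.43. AW050244, titled only as ESTs and placed in another cluster again, had spots of 31, 75 and 25 pixels on repeats 1, 2 and 4 and none on repeat 3. Its log2 ratios were 0.14, 0.40 and -0.28, with a mean of 0.08 ± 0.34 (SD, n = 3). On repeat 2 its control signal was at the floor of 1, and the authors' deposited ratio there was 40.4 before loess brought the value near 0. Neither clone gave a ratio that could be set against those of the brighter clones.

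**Figure D2:**
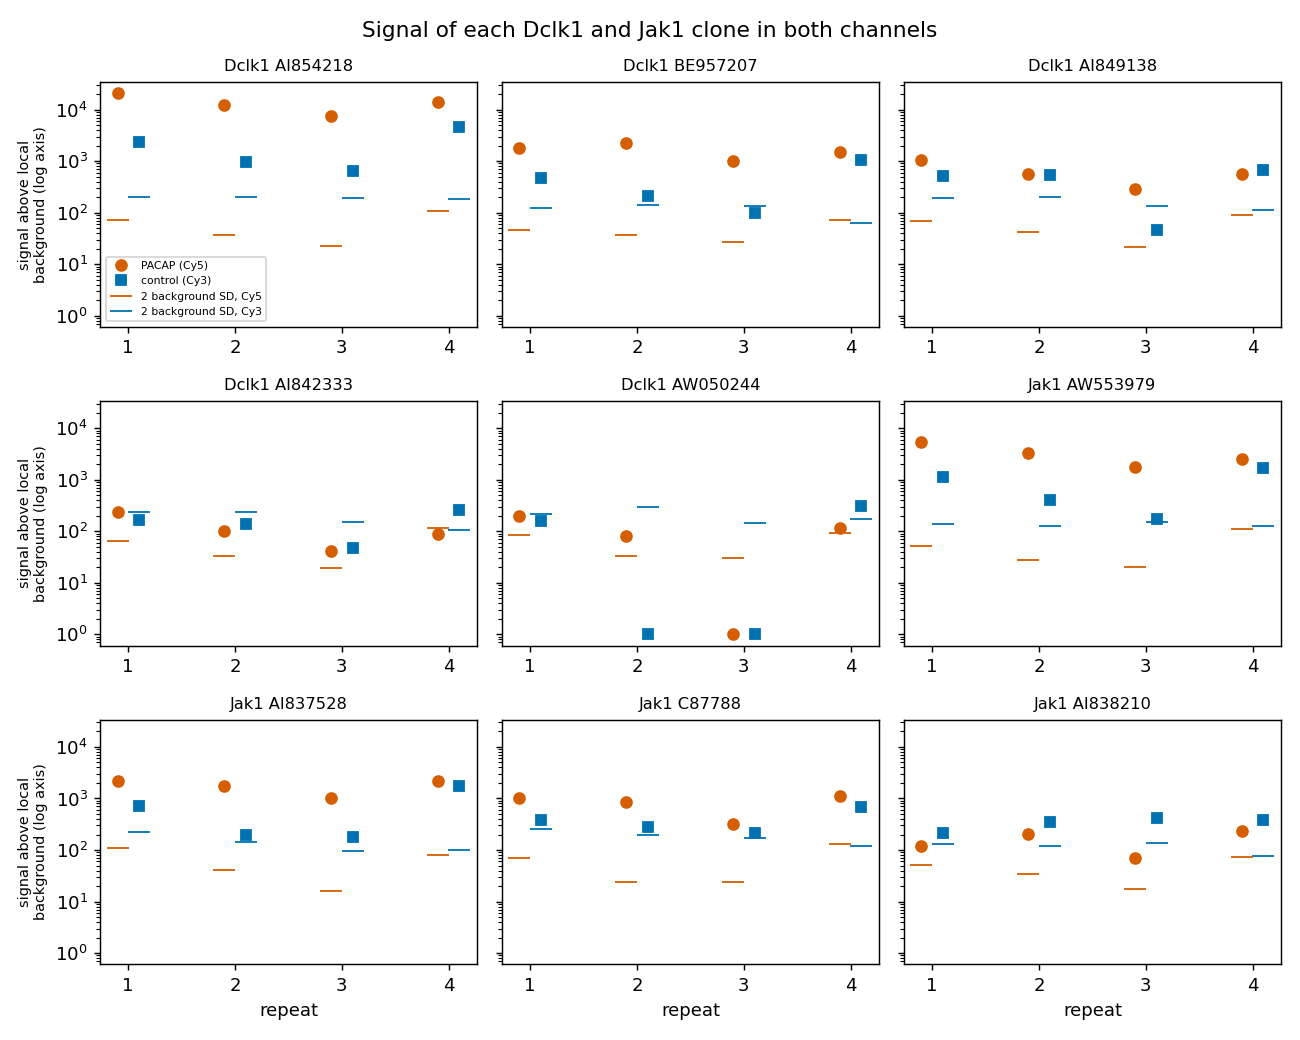
Spot signal above the local background (vertical axis, log scale, floor 1) on each repeat (horizontal axis) for the 9 clones. Circles are PACAP (Cy5), squares are control (Cy3), and the short lines mark 2 background SDs in each channel. For Dclk1 AI854218 and Jak1 AW553979 both channels lie above these lines on all 4 repeats, while the control squares of Dclk1 AI842333 lie below theirs on repeats 1 to 3.

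All 4 Jak1 clones were titled as highly similar to the human tyrosine-protein kinase JAK1 and shared 1 UniGene cluster. The brightest was AW553979. Its PACAP signal was 5445.7, 3364.8, 1803.4 and 2526.5, and its control signal 1110.9, 405.6, 175.9 and 1669.5. The PACAP signal was the higher one on every array. The log2 ratios were 1.14, 1.29, 2.27 and 1.76, with a mean of 1.62 ± 0.51 (SD, n = 4), or 3.07-fold. On repeat 3, where the ratio was highest, the control signal was only 2.34 background SDs above the local background. Without repeat 4 the mean was 1.57.

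AI837528 came next in brightness. Its PACAP signal was 2180.4, 1761.5, 1027.7 and 2168.9, and its control signal 700.2, 191.9, 175.8 and 1724.6. Its log2 ratios were 0.69, 1.98, 1.62 and 1.50, with a mean of 1.45 ± 0.54 (SD, n = 4). The highest of them, on repeat 2, rests on a control signal 2.71 background SDs above the local background. AW553979 and AI837528 differed by 0.17 ± 0.59 (SD, n = 4), which is within the spread between arrays, and AI837528 was the higher clone on repeat 2.

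C87788 had a PACAP signal of 1039.4, 840.3, 315.1 and 1094.7 and a control signal of 380.6, 285.9, 215.8 and 679.1. Its log2 ratios were 0.73, 0.49, -0.02 and 1.90, with a mean of 0.77 ± 0.81 (SD, n = 4). The ratio was highest on repeat 4, and without that array the mean was 0.40. AW553979 exceeded C87788 by 0.84 ± 1.03 (SD, n = 4), a gap smaller than its own spread, and was the lower of the pair on repeat 4.

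AI838210 went the other way from the other Jak1 clones. Its PACAP signal was 120.1, 204.8, 71.4 and 231.7, and its control signal 212.1, 342.1, 421.4 and 380.5. The control signal was the higher one on every array, and both channels were above background. The log2 ratios were -1.09, -1.23, -2.69 and 0.41, with a mean of -1.15 ± 1.27 (SD, n = 4). Repeat 4 alone lay above 0 after loess. Without repeat 3 the mean was -0.64 and without repeat 4 it was -1.67. In the deposited log2 ratios before centring, whose median over all probes was 3.30, the clone had 0.11. With loess AI838210 was the lowest Jak1 clone on all 4 arrays: AW553979 exceeded it by 2.24, 2.52, 4.96 and 1.35, a mean of 2.77 ± 1.54 (SD, n = 4), and C87788 exceeded it by 1.93 ± 0.52 (SD, n = 4). This gap between clones of 1 title and 1 cluster was larger than its spread over arrays. All spots of AI838210 were under 60 pixels, so the clone had no value once such spots were left out. AW553979, AI837528 and C87788 then kept means of 1.62, 1.45 and 0.77.

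The SD between the means of the 4 Jak1 clones was 1.27 and their range 2.77. The low end of that range was AI838210, whose spots were small, from 33 to 51 pixels. Over 1085 genes with at least 4 tested clones the median SD was 0.357 and the median range 0.84. No such figure is set against them for Dclk1, because its low end lay at AI842333, for which no fold is given. Among the 3 brighter Dclk1 clones the means ran from 0.80 to 1.99. For a sense of the error within an array, 66 clones were printed at 2 positions. The median absolute difference between their positions was 0.154, 0.305, 0.288 and 0.207 on repeats 1 to 4, and its 90th percentile ran from 0.627 to 0.893. The gaps between AI838210 and AW553979 on each array, from 1.35 to 4.96, lay outside that range. Jak1 was picked for the high ratio of AW553979, and the pair has the highest and lowest means of the gene. A wide gap and a wide range are thus in part built in by the choice. The clones printed at 2 positions were not matched to these clones in brightness or spot area.

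The quality score that the authors deposited for each spot differed between the clones. It was 1 on every array for 6 clones: Dclk1 AI854218, BE957207 and AI849138 and Jak1 AW553979, AI837528 and C87788. All 6 had mean ratios above 0, from 0.77 to 1.99, and spot areas from 102 to 151 pixels. The score was 0 throughout for Dclk1 AI842333 and AW050244, whose control signals were too weak for a comparison of ratios, and for Jak1 AI838210, whose mean ratio was -1.15. Area did not divide the clones in the same way. AI838210 had small spots of 46, 48, 51 and 33 pixels, while AI842333 had spots of 118, 105 and 89 pixels where one was found. The score moved with the ratio over the whole array too. Of 10669 probes with a score of 1 on every array 61.1% had a mean ratio above 0, with a median of 0.10. Of 4372 probes with a score of 0 on every array 15.4% did, with a median of -0.40. The part of spot area and quality in the differences between clones was not tested.

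**Figure D3:**
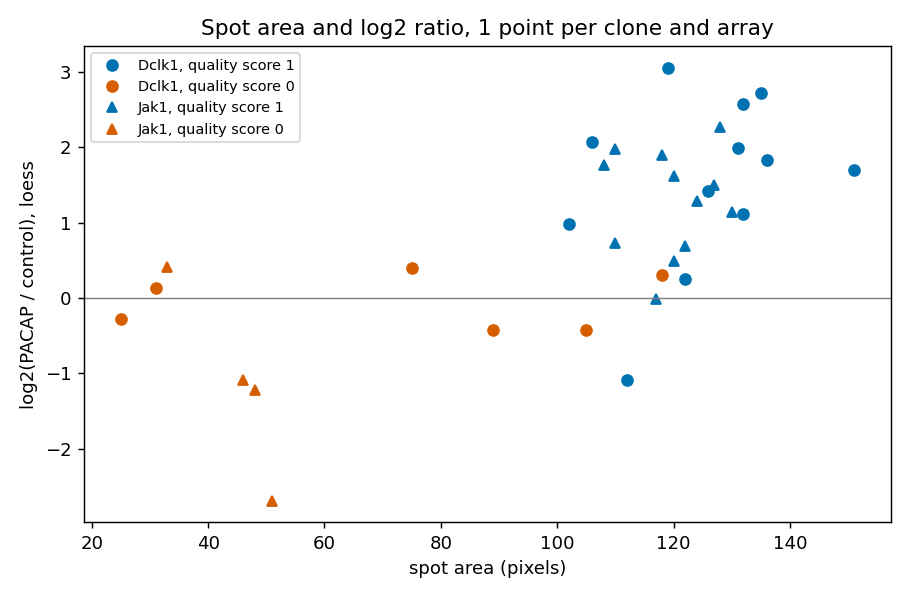
Spot area in pixels (horizontal axis) against log2(PACAP/control) after loess (vertical axis), with 1 point per clone and array. Circles are Dclk1 and triangles Jak1 clones, and the colours separate a deposited quality score of 1 from a score of 0. Points with a score of 1 lie between 102 and 151 pixels, while the 4 points of Jak1 AI838210 lie between 33 and 51 pixels.

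The spots printed beside the members were read as well, since the closest profile to the reported Dclk1 clone belonged to its neighbour. Of 11361 named genes with a value on every array, the brightest clone of Dus1l, a gene for a tRNA dihydrouridine synthase, had the smallest root mean square difference in log2 ratio from AI854218, at 0.238 over 4 arrays. Jak1 AW553979 came next at 0.605, and then Tac1, which encodes the precursor of the neuropeptide substance P, at 0.666. The Dus1l clone, AI854245, was the very next spot of the same row after AI854218. Its PACAP signal was 16648.5, 10554.4, 5946.3 and 9688.3, and its control signal 2278.3, 749.5, 569.4 and 3955. Its log2 ratios of 1.55, 1.64, 1.86 and 2.42 had a mean of 1.87 ± 0.39 (SD, n = 4). By control signal the 4 arrays stood in the same order for both spots, while by PACAP signal repeats 2 and 4 changed places. The median control signals of all library spots, 306.4, 206.4, 129.4 and 548, had that same order, so it is not particular to these spots. The other Dus1l clone, AW559130, had a mean of 0.22.

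Ratios fell off along that row on the far side of the Dus1l spot. The second spot after AI854218, Atp9b AI854763, had log2 ratios of 1.17, 1.35, 1.23 and 1.35, with a mean of 1.27 ± 0.09 (SD, n = 4). The next one, the unnamed clone AI854792, had a mean of 0.74 ± 0.41 (SD, n = 4). On the other side the means were 0.51 ± 0.62 for Pwwp2a, 0.06 ± 0.24 for Peli2 and -0.44 ± 0.53 for Acss2 (SD, n = 4 each). The 5 library spots directly around AI854218, the Dus1l spot among them, had median ratios of -0.39, 0.13, -0.80 and -0.13 on repeats 1 to 4. The part of the neighbouring spots in the ratio of AI854218, or the reverse, was not tested.

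Row neighbours of the other high clones had lower mean ratios than the clone itself. Beside Dclk1 BE957207 lay Wnt3 with a mean of 0.25 ± 0.94 and Lrrtm3 with 0.75 ± 0.88 (SD, n = 4 each). Beside Jak1 AW553979 lay Scarb2 with 0.28 ± 0.54 and Dtd1 with 0.67 ± 0.86 (SD, n = 4 each). Beside Jak1 AI837528 lay Slc1a3 with -0.18 ± 0.57 and Cadm3 with 0.14 ± 0.42, and Tbc1d10a, 2 spots away, had 1.14 ± 0.70 (SD, n = 4 each). On repeat 2 Lrrtm3 had 1.89 beside 2.07 for BE957207, and Tbc1d10a 1.91 near 1.98 for AI837528. The spots surrounding BE957207 had medians of -0.50, 0.69, 0.58 and -0.19 on repeats 1 to 4. Those around AW553979 had 0.43, 0.58, 0.70 and -0.29, and those around AI837528 -0.30, 1.17, 0.50 and -0.30. The part of these spots in the ratios was not tested. Around Dclk1 AI849138, 3 of the 6 nearest spots of the row were also high on repeat 3: Ednrb had 2.67, Ube2s 1.51 and Col1a1 1.92 on that array. The remaining 3 were not, with 0.27 for Ep300, 0.30 for Mphosph10 and -0.91 for the unnamed AI844801. The surrounding spots of AI849138 had a median of 1.52 on repeat 3 and from -0.30 to 0.17 on the other arrays. Over all library spots, mean ratios of spots 1 apart in a row correlated with r = 0.328 (30509 pairs), and those of spots 6 apart with r = 0.171. These are correlations across spots that share an array and a print block, and spots are not independent replicates.

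**Figure D4:**
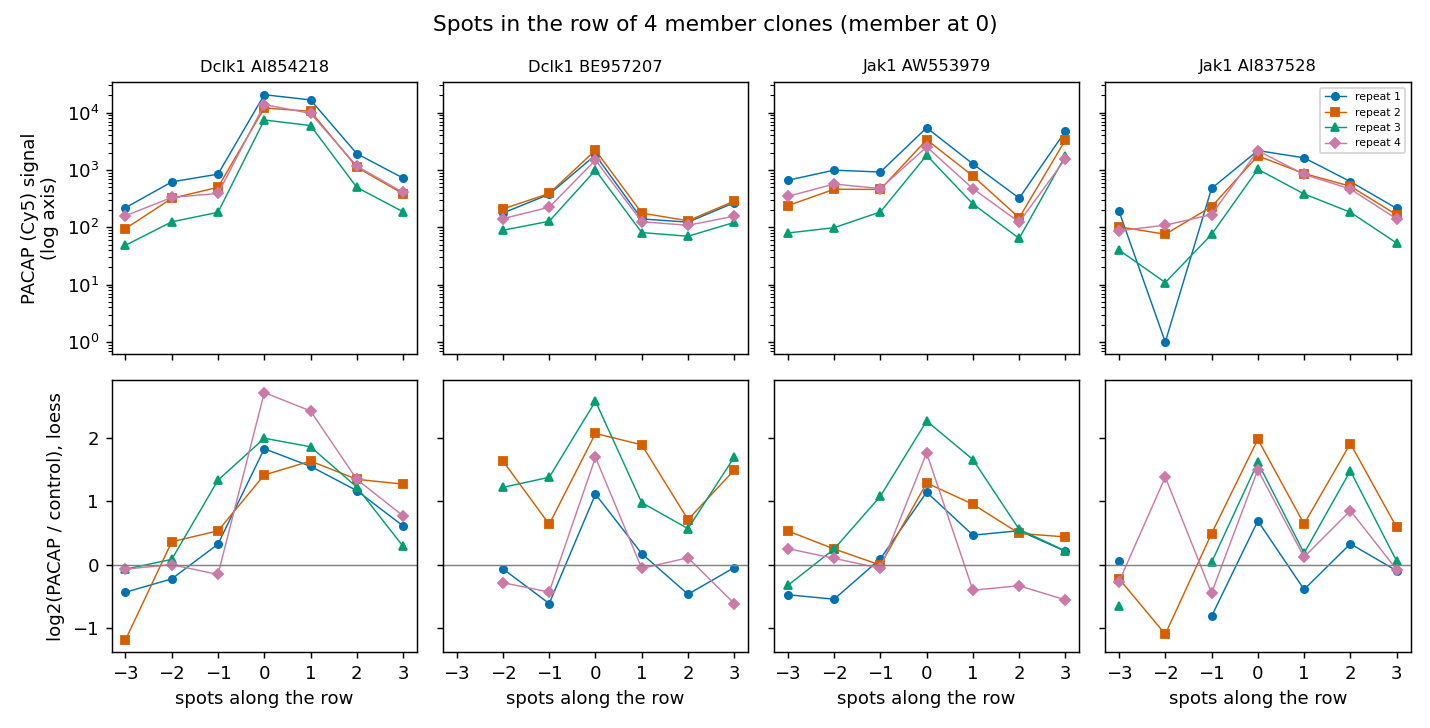
PACAP (Cy5) signal on a log axis (upper panels) and log2(PACAP/control) after loess (lower panels) for up to 3 spots on either side of 4 member clones, at 0 on the horizontal axis. Lines join the spots of 1 repeat, and a signal of 1 is the floor. In the row of Dclk1 AI854218 the Dus1l spot at position 1 follows the member on every repeat, with a mean of 1.87 against 1.99.

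Besides Tac1, at a root mean square difference of 0.391, and Dus1l, at 0.471, the gene nearest in profile to Jak1 AW553979 was Hif1a, which encodes the oxygen-regulated subunit of the hypoxia-inducible factor. Its clone AW543477 lay at 0.510 over 4 arrays. This clone had log2 ratios of 0.51, 0.88, 1.67 and 1.43, while the other Hif1a clone, BE953937, had a mean of -0.52. These genes were ranked on the contrast itself, so the nearness is a description. Tac1 AI850769 had log2 ratios of 1.29, 1.99, 1.97 and 1.64, with control RNA above background on 1 array of the 4. The other Tac1 clone, AI846166, had a mean of 2.79 ± 1.02 (SD, n = 4).

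The nearest relatives of both kinases did not show the ratios of the brightest Dclk1 and Jak1 clones. Jak2, the Janus kinase of hormone-type cytokine receptors, had ratios of 0.31, -0.60, -0.59 and 0.56 for clone C81284, with a mean of -0.08 ± 0.60 (SD, n = 4, limma adjusted p = 0.931). Its other clone, AU023352, had a mean of 0.38 ± 0.55 (SD, n = 4). Jak3 and Tyk2 were not measured. Dclk2, a second doublecortin-like kinase, had 4 clones, with means of 0.34 for C85711, 0.97 for C86500, -0.11 for BE946715 and 0.34 for AU044875. C85711 was above 0 on all 4 arrays, at 0.29, 0.78, 0.04 and 0.25 (limma adjusted p = 0.604). So was C86500, at 0.28, 0.47, 1.38 and 1.77, and its limma adjusted p was 0.454. Dclk3, the third such kinase, had means of -0.37 ± 1.09 and -0.59 ± 0.93 (SD, n = 4 each) for its 2 clones. Doublecortin itself, Dcx, had ratios of -0.37, -0.64, -0.53 and -0.02, with small spots and a control signal above background on 2 arrays (limma adjusted p = 0.558).

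**Figure D5:**
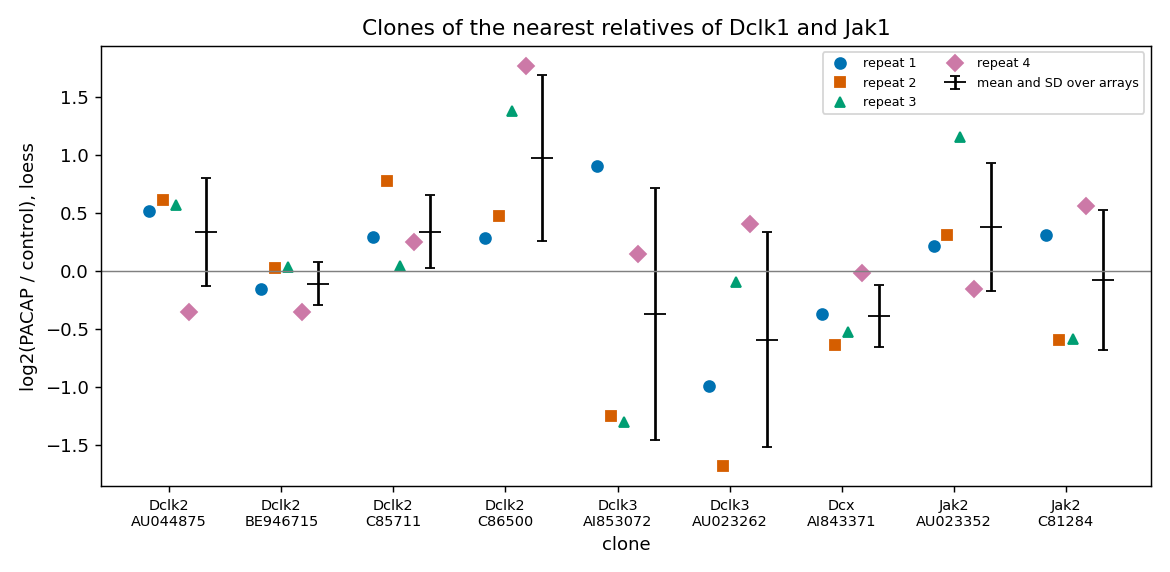
Log2(PACAP/control) after loess (vertical axis) of 9 clones of Dclk2, Dclk3, Dcx and Jak2. Symbols are the 4 repeats and the bars show the mean and SD over arrays. Dclk2 C86500 has the highest mean, 0.97, and its 4 repeats run from 0.28 to 1.77.

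The wider Janus kinase pathway was read from 4 lists, taking the brightest clone of each gene. Among 11740 named genes 52.9% had a mean ratio above 0, and the median was 0.03. No named gene passed the adjusted p in limma (0%). At an unadjusted p under 0.05, 4.33% were higher and 4.54% lower. Of 26 cytokine receptor genes 14 were measured, 4 with a mean above 0 and 10 below, with a median of -0.06, which was 0.06 with a loess fitted per print block. None was higher and 1 lower at the unadjusted p. The lower one was Ifnar2, a chain of the type I interferon receptor, at -1.17, -0.95 and -3.25 with no spot on repeat 4 (mean -1.79 ± 1.27, SD, n = 3, limma adjusted p = 0.454). Its control signal was above background on 2 arrays, its median spot area was 56 pixels, and without repeat 3 the mean was -1.06. Il6st, the gp130 chain through which interleukin-6 signals to Janus kinases, had a mean of 0.28 ± 0.33 (SD, n = 4, limma adjusted p = 0.672), and its other clones were at 0.66 and -0.10.

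Of 11 other Janus kinase and STAT genes 7 were measured, 4 above 0 and 3 below, with a median of 0.01. Stat3, the STAT of gp130 cytokines, was the 1 gene higher at the unadjusted p. Its brightest clone AW558914 had ratios of 0.53, 0.79, 0.33 and 0.99, with a mean of 0.66 ± 0.29 (SD, n = 4, limma adjusted p = 0.454). The other Stat3 clones had means of 0.63 and 0.57, so the clones of this gene lay close together, and AW558914 was at -1.84 in the centred deposited log2 ratios. Stat2, a STAT of interferon signalling, had a mean of -0.45 ± 0.76 (SD, n = 4, limma adjusted p = 0.602), while its other clone AU019391 was at 0.20.

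All 19 genes listed as inhibitors of Janus kinase signalling were measured, 13 above 0 and 6 below, with a median of 0.18, which was -0.38 in the centred deposited log2 ratios. At the unadjusted p 2 were higher and 1 lower. Sh2b3, which encodes the adaptor LNK, had ratios of 0.88, 0.37, 2.22 and 1.12 (mean 1.15 ± 0.78, SD, n = 4, limma adjusted p = 0.454), with a control signal above background on 2 arrays. Its other clones had means of 0.46 and 0.33. Socs4, of the family that blocks cytokine signals, had ratios of -0.92, -1.88 and -0.77 with no value on repeat 4 (mean -1.19 ± 0.60, SD, n = 3, limma adjusted p = 0.454). Of 17 STAT target genes 14 were measured, 7 above 0 and 7 below, with a median of 0.004. Timp1, an inhibitor of metalloproteinases, was the 1 target higher at the unadjusted p, at 1.03, 0.94, 1.34 and 0.73 (mean 1.01 ± 0.25, SD, n = 4, limma adjusted p = 0.454). Irf1, an interferon-induced transcription factor, had a mean of -0.45 ± 0.46 (SD, n = 4, limma adjusted p = 0.549). No gene of these 4 lists passed the adjusted p.

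On the Dclk1 side, 25 of 27 genes of the doublecortin family and its microtubule partners were measured, 11 above 0 and 14 below. Their median was -0.05, which was 0.38 with median centring in place of loess. None was higher and 3 were lower at the unadjusted p. Tubb3, the neuronal beta-tubulin, had ratios of -1.03, -0.96, -1.26 and -0.67 (mean -0.98 ± 0.24, SD, n = 4, limma adjusted p = 0.454), and its other clone had a mean of -0.48. In the deposited log2 ratios before centring Tubb3 was at 0.23. Tubb2b, another beta-tubulin of neurons, had a mean of -0.82 ± 0.38 (SD, n = 4, limma adjusted p = 0.454), while its other clone was at 0.04. The sign of Tubb2b turned with median centring, to 0.15. Of 20 calcium/calmodulin-dependent kinase genes 18 were measured, 12 above 0 and 6 below, with a median of 0.15, which was -0.11 in the authors' calibrated ratios. None of these kinases passed even the unadjusted p. Camk1g had a mean of 0.67 ± 0.94 (SD, n = 4, limma adjusted p = 0.520) and Camk2a one of 0.45 ± 0.36 (SD, n = 4, limma adjusted p = 0.532). The means of 5 other Camk2a clones ran from -0.05 to 0.20.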

How the data were processed

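Per the labels, 4 two-colour arrays were hybridised with Cy5 (PACAP) and Cy3 (control) cDNA. The authors deposited scanner tables with mean intensities per spot and channel, local background and its SD, spot area, a quality score, and a ratio calibrated by 1 factor per array. That the intensities are already background-subtracted was checked from the deposited totals per spot. A series table holds deposited log2 ratios, whose processing, centring and image program are not given in the sources used here. Plate positions linked it to the spots. Of its 35873 entries, 35695 had a median difference under 0.1 log2 from recomputed ratios and were named through the platform annotation. For the recomputed ratios the local background was subtracted once more from the scanner intensities, which were floored at 1. The calibration factor of the array was then divided out. The deposited log2 ratios were thus reproduced by a second background subtraction. Of the library spots 22477 had 1 gene symbol, 1111 several and 12508 none.

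Intensities were floored at 1 and normalized by global loess within each array (span 0.3). Spots of no area were left out, from 577 to 1875 per array, and spots of 1 clone were averaged. Probes were kept where at least 1 channel exceeded 2 background SDs on 3 arrays. limma 3.58.1 in R 4.3.3 (lmFit and eBayes, 2-sided against 0, Benjamini-Hochberg over all probes) was run on all 4 arrays and tested on simulated data. The number of arrays limits the precision. Every clone of Dclk1 and Jak1 was named. In each list the 2 genes of smallest p were named, with Jak2, Dclk2, Dclk3 and Dcx, and the 3 genes nearest in profile to each reported clone. The spots beside the members were chosen after the data had been seen. The members and lists were chosen with earlier results of these data known. Alternatives covered normalization, background, floor, source of values, filters, moderation and each array left out. Leaving out dim spots and centring the deposited log2 ratios were added after the data had been seen.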

Additional observations from a re-analysis of the deposited data

How the results depend on the processing

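The reported Dclk1 clone, at 1.99, was 2.99 with median centring, 2.71 in the authors' calibrated ratios, 3.41 in the deposited log2 ratios and -0.17 ± 2.49 (SD, n = 4) when those were centred on their median. The reported Jak1 clone, at 1.62, was 2.32 with median centring, 4.42 in the deposited log2 ratios and 0.84 after centring them. Leaving out 1 array gave 1.75 to 2.18 for Dclk1 and 1.40 to 1.77 for Jak1. The median of all probes was 3.30 in the deposited log2 ratios, of which 97.0% were above 0, and -0.31 in the calibrated ratios. Clones above 0 numbered 7 of 9, and from 5 to 9 over the alternatives. With dim spots left out, 6 of 7 were above 0. The same count held with spots under 60 pixels left out, where Jak1 AI838210 had no value. No probe passed the adjusted p except 309 in the centred deposited log2 ratios and 3 with trend and robust moderation. Those 3 were Dclk1 AI854218, the Dus1l clone beside it and the unnamed C80571. Dclk1 was picked on these same ratios, so its place there is no test of it. With an unadjusted p under 0.05 there were 3647 probes, 6099 with median centring, 6758 in the calibrated ratios, 14705 in the deposited log2 ratios, 2344 with both channels above background, 2145 without repeat 2 and 1835 without repeat 3. In the deposited log2 ratios before centring, signs turned for Ifnar2 (0.86), Socs4 (2.15), Tubb3 (0.23), Tubb2b (0.092), Dcx (1.19), Dclk3 (2.25), Stat2 (0.78), Irf1 (0.34), Jak2 (5.18), AI838210 (0.11) and AI842333 (3.34). Centred, they turned for Stat3 (-1.84), Il6st (-0.17), Jak2 (1.60), AW050244 (-0.30) and the median of the inhibitor list (-0.38). With median centring they turned for Tubb2b (0.15) and Irf1 (0.29). Means and list medians near 0, such as those of Jak2, AW050244 and 5 of the 6 lists, turned under further alternatives. The deposited log2 ratios carry the second background subtraction described above. How far that step accounts for these shifts was not tested, nor was any other cause. Control signals near background, on repeats 2 and 3 above all, limit the ratios of dim clones. Each ratio is already a difference within a repeat, since its treated and control RNA share an array, so no further pairing applies.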

Other observations

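The brightest 1% of probes, to which Dclk1 AI854218 belongs, had median log2 ratios of -0.07, -0.18, -0.10 and -0.09 on repeats 1 to 4. Loess is built to bring the average ratio at each brightness near 0, so medians near 0 are what the correction aims at. A trend with mean brightness remained on some arrays. Over 5 classes from dim to bright, the medians were -0.46, -0.23, 0.23, 0.31 and 0.10 on repeat 3. On repeat 2 they ran from -0.22 to 0.13, on repeat 1 from -0.06 to 0.04 and on repeat 4 from -0.03 to 0.05. The ratios of AI854218 ran from 1.42 to 2.72. In the deposited log2 ratios, Jak1 C87788 had the highest mean of the Jak1 clones, at 6.91, and Dclk1 BE957207 the highest of the Dclk1 clones, at 5.81. With loess AW553979 and AI837528 had higher mean ratios than C87788. In the authors' calibrated ratios, without a second background subtraction, the order was as with loess. AW553979 was at 2.04, AI837528 at 1.64 and C87788 at 0.78, and AI854218 was at 2.71 and BE957207 at 2.01. The control signal of C87788 on repeats 1 to 3 (380.6, 285.9 and 215.8) was below the local background (544.4, 382.6 and 333.2). That was not particular to C87788. It also held for AW553979 on repeat 3 (175.9 against 244.9) and AI837528 on repeat 2 (191.9 against 246.6). For BE957207 it held on repeats 2 and 3 (207.1 against 257 and 100.5 against 240.5). Of these sources only the deposited log2 ratios gave the named clones another order. Over all library spots, mean ratios of spots 1 apart along a column correlated with r = 0.231, and those of spots 2 apart along a row with r = 0.245.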
